A study of Mus musculus with 6 samples.

Results

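Vascular endothelial growth factors (VEGFs) and their receptors were followed in the submandibular glands (SGs) of ovariectomized mice. Members were taken by gene symbol from the platform annotation of the array, and 8 of the 9 listed genes were measured, among 19505 genes in all. These were the ligands Vegfa, Vegfb, Vegfc and Pgf, the receptors Flt1, Kdr and Flt4, and the co-receptor Nrp2, each with 1 probe set, while Nrp1 was not analysed here. The SGs came from female BALB/c mice that had sham surgery (Cont group, n = 3) or bilateral ovariectomy (OVX group, n = 3) at 6 weeks of age. All were taken at 14 weeks of age, 8 weeks after the surgery, with 1 Clariom S array per mouse. Ovariectomy removes every ovarian hormone, so the groups do not separate estrogen from the others.

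Values are log2 intensities that the authors normalized together, with array medians between 5.20 and 5.22. The probes of 1 gene differ in brightness from those of another, so a level is compared only between arrays and not between genes. Secretory genes of the SG were bright in the Cont arrays, as in Smgc with 12.33 ± 0.05 (SD, n = 3). All changes below are OVX minus Cont, tested with limma and adjusted by Benjamini-Hochberg over all named probe sets. A gene is called at an adjusted p under 0.05, which 709 of 19505 genes (3.63%) reached, with 2.57% called higher and 1.07% called lower. With 3 mice a group, the number of arrays sets how precise a value can be.

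VEGF-A is secreted by epithelial, mesenchymal and other cells and acts on endothelial cells, where its binding to the kinase VEGF receptor 2, encoded by Kdr, drives the growth and leakiness of blood vessels. VEGF-B and placental growth factor bind VEGF receptor 1, encoded by Flt1, which also occurs as a soluble form that traps ligand. VEGF-C acts on VEGF receptor 3, encoded by Flt4, which is known for the growth of lymphatic vessels. Neuropilins bind VEGFs as co-receptors and also serve the class 3 semaphorins, which are guidance molecules of axons and vessels. In glands the capillaries run around ducts and acini and supply the water of the saliva. In a whole-gland sample, fewer cells of a type and less RNA per cell cannot be told apart, and the array value sums over all splice forms that the probes detect.

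The letters upstream of the start sites are shown for the 3 members whose OVX arrays did not overlap the Cont arrays, as 21.4% of all genes did not. Of these Vegfa was called, and Vegfb and Kdr were not. They are the 250 bases before the outermost start in RefSeq, read 5′ to 3′ on the strand of the gene, in build GRCm38.p6, whose strain is not the one studied here. The windows are chr17:46032378-46032627 (minus strand) for Vegfa, chr19:6987652-6987901 (minus strand) for Vegfb and chr5:75978456-75978705 (minus strand) for Kdr. Capitals mark matches, on either strand, to the GC box GGGCGG and to the core of hypoxia response elements, ACGTG or GCGTG, and no match in these windows overlaps another.
Vegfa: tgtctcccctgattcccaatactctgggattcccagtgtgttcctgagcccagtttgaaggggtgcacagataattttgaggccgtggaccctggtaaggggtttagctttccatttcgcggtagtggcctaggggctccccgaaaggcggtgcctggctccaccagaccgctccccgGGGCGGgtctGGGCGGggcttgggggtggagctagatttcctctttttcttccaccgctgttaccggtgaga
Vegfb: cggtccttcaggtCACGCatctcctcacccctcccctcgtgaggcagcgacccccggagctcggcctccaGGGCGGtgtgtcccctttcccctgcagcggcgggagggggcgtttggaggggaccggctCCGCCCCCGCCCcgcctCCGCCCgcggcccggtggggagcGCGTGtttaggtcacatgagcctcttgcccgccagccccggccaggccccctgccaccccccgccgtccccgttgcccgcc
Kdr: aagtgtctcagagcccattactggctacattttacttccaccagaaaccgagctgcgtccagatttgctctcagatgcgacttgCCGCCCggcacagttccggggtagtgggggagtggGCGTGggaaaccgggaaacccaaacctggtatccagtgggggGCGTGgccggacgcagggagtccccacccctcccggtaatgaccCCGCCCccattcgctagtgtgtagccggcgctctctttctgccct

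The Vegfa window held 2 GC boxes, which began 72 and 62 bases before the start, and neither form of the hypoxia core. RefSeq lists 2 starts for Vegfa, and the window before the other, inner start, which is not printed, held 1 GC box and 1 match to each form of the core. The Vegfb window held 4 GC boxes and 2 matches to GCGTG, and the Kdr window held 2 of each. At the outermost starts GC boxes were found in 8 of 8 members, GCGTG in 5 and ACGTG in 0. Of all 32851 windows of that length in the table, 32.7% held a GC box, 28.2% held GCGTG and 16.6% held ACGTG. The palindromes of the estrogen response element and of a loose form of the androgen response element were found in 0 of the 8 members and in 0.0639% and 0.387% of all windows. A match describes letters only, and its absence says nothing of the factor.

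Vegfa was the single member that passed the test, and it was higher in the OVX-SGs. The Cont arrays gave 7.25, 7.28 and 6.95 and the OVX arrays gave 8.69, 8.75 and 8.95. Every OVX array was above every Cont array, by a gap far wider than the spread within either group. The mean rose from 7.16 ± 0.18 (SD, n = 3) to 8.80 ± 0.13 (SD, n = 3). That is a log2 change of 1.64 (standard error 0.15, 95% interval 1.31 to 1.96, limma adjusted p = 8.75e-05), or 3.11-fold. Among all genes it was number 66 by size of rise. With each array left out in turn the change stayed between 1.53 and 1.70 and passed in 6 of 6 fits. The methods' t-test, adjusted over all genes, did not call it.

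The other ligands did not pass. Vegfb, whose product is known for roles in muscle and in the survival of vessels, gave 7.40, 7.56 and 7.42 in the Cont arrays and 7.001, 6.94 and 7.09 in the OVX arrays. Here the order of the groups was opposite to that of Vegfa, since every OVX array was below every Cont array. Its log2 change was −0.45 (standard error 0.13, 95% interval −0.74 to −0.16), with an unadjusted p of 0.00544 and a limma adjusted p of 0.0970. Under limma's trend and robust settings, in which the expected variance depends on a gene's brightness, it passed with an adjusted p of 0.0268.

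Vegfc, the lymphatic ligand, was almost level across the 6 arrays. It gave 7.04, 7.09 and 6.99 in the Cont arrays and 7.06, 7.01 and 7.01 in the OVX arrays, and the groups overlapped. The log2 change of −0.02 (limma adjusted p = 0.968) had a 95% interval of −0.29 to 0.26, so a larger change in either direction lies outside the range these arrays give. Pgf, which encodes placental growth factor, gave 5.47, 5.28 and 5.43 in the Cont arrays and 5.52, 5.45 and 4.95 in the OVX arrays. OVX replicate 3 stood below the rest and the other OVX arrays were among or above the Cont arrays. The log2 change was −0.09 (95% interval −0.46 to 0.28, limma adjusted p = 0.852), and without OVX replicate 3 it was 0.088.

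Of the 3 receptors 0 passed the test, with 1 at an unadjusted p under 0.05, also by the methods' t-test. Kdr, the main signalling receptor for VEGF-A, gave 5.97, 5.84 and 5.95 in the Cont arrays and 6.37, 6.11 and 6.45 in the OVX arrays. Every OVX array was above every Cont array, though OVX replicate 2 lay close to the Cont range. The log2 change was 0.39 (standard error 0.14, 95% interval 0.08 to 0.70), with an unadjusted p of 0.0194 and a limma adjusted p of 0.198.

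Flt1, the receptor that binds VEGF-A tightly but signals weakly, gave 5.38, 5.71 and 5.62 in the Cont arrays and 5.66, 5.66 and 5.81 in the OVX arrays. The groups overlapped and Cont replicate 1 was the lowest array. The log2 change was 0.14 (95% interval −0.17 to 0.45, limma adjusted p = 0.693). Flt4, the lymphatic receptor, gave 4.90, 4.85 and 4.56 in the Cont arrays and 4.47, 4.78 and 4.56 in the OVX arrays. Both groups spread over the same range, below the median of every array, and the table holds no detection calls. Its log2 change was −0.17 (95% interval −0.50 to 0.17, limma adjusted p = 0.648).

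The co-receptor Nrp2, which binds VEGF-C and class 3 semaphorins, gave 4.93, 4.89 and 5.09 in the Cont arrays and 5.02, 5.35 and 5.01 in the OVX arrays. OVX replicate 2 was the highest and the other OVX arrays lay within the Cont range. The log2 change was 0.15 (95% interval −0.17 to 0.48, limma adjusted p = 0.669).

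**Figure D1:**
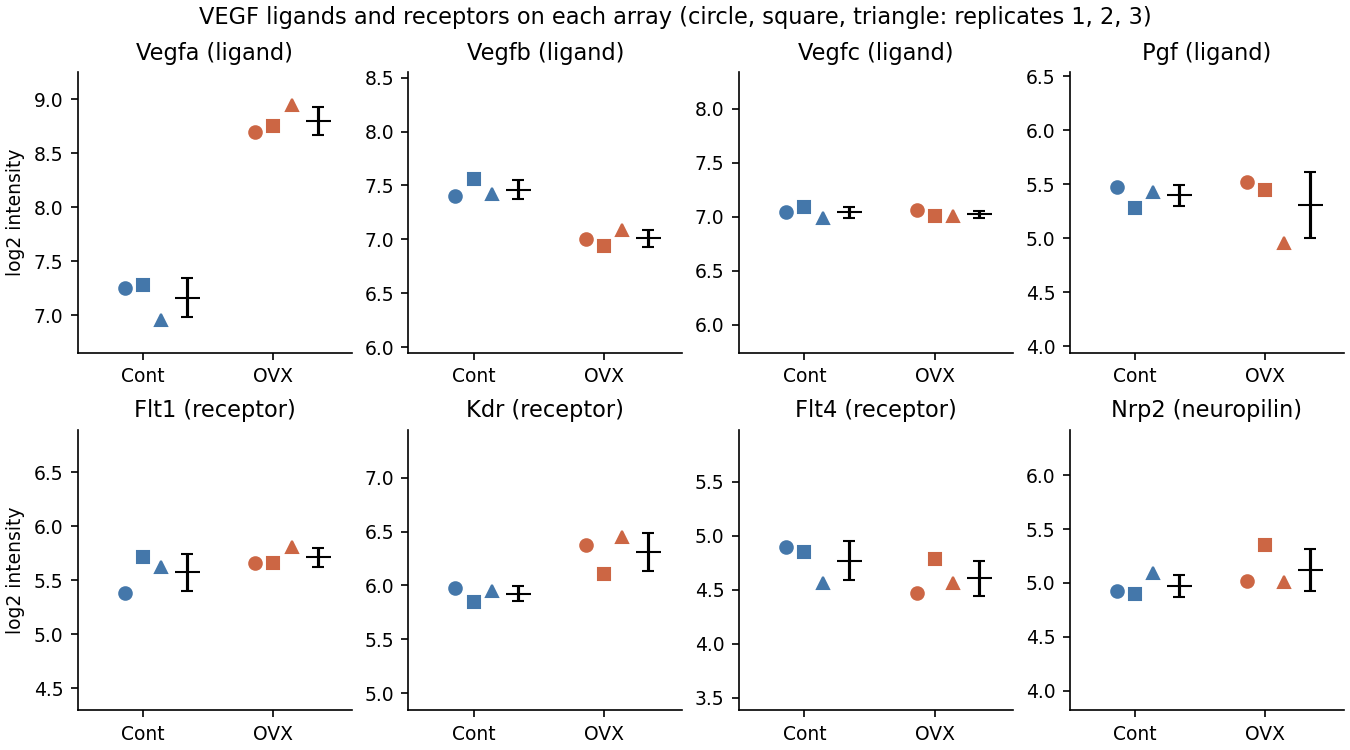
Log2 intensity of each of the 8 measured members on each array, by group on the x axis, with the y axis spanning the same range of log2 units in every panel. Points are mice (3 Cont, 3 OVX) and bars are the mean ± SD. Vegfa lies at 6.95 to 7.28 in Cont and 8.69 to 8.95 in OVX, and apart from Vegfb and Kdr the other genes overlap.

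Over the 8 measured members 1 was called, 12.5% against 3.63% of all genes, a count too small to read further. The groups did not overlap in 3 of the 8, 2 with OVX above and 1 with OVX below, where 21.4% of all genes did not overlap (10.7% with OVX above and 10.6% below). The median log2 change of the members was 0.06, beside −0.02 over all genes, and 4 members had a higher and 4 a lower OVX mean. An unadjusted limma p under 0.05 was reached by 3 members and by 15.8% of all genes. The study's threshold asks for a 1.5-fold change or more and an unadjusted p no higher than 0.05, and Vegfa alone among the members met it, beside 4.99% of all genes with limma's p and 4.26% with the p of the methods' t-test. By the methods' t-test after adjustment 0 members and 0.405% of all genes passed.

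**Figure D2:**
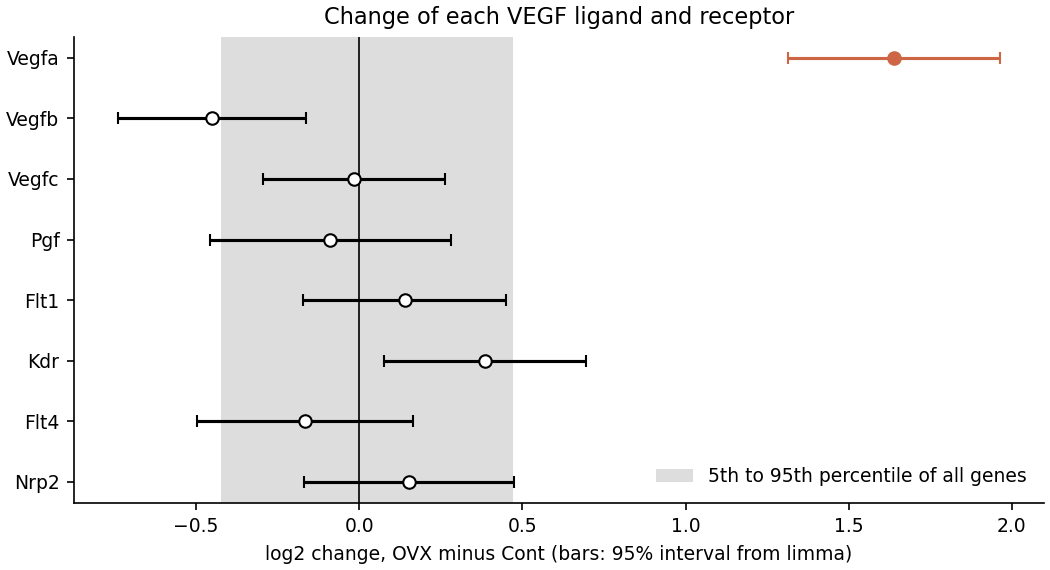
Log2 change (OVX minus Cont, x axis) of each measured member, with 95% intervals from limma over 3 against 3 arrays and a filled point for the called gene. The grey band spans the 5th to the 95th percentile of all genes, −0.42 to 0.47, and Vegfa at 1.64 lies far above it while Vegfb at −0.45 lies just below it.

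The change of Vegfa was set against that of every other member as a difference of log2 values on each array. The smallest such difference of change was with Kdr, at 1.25, and the largest was with Vegfb, at 2.09. Vegfa minus Kdr was 1.00 to 1.43 on the Cont arrays and 2.32 to 2.64 on the OVX arrays. Vegfa minus Vegfb was −0.47 to −0.15 on the Cont arrays and 1.69 to 1.86 on the OVX arrays. In each of the 7 comparisons the OVX arrays stood apart from the Cont arrays, with a two-sided exact permutation p of 0.1 before and after adjustment, the smallest that 3 against 3 arrays allow. This test cannot go below 0.1 here, whatever the size of a difference. All 7 comparisons share the Vegfa values, whose groups stood far apart on their own, so they are not 7 separate results.

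The genes whose pattern over the 6 arrays was closest to that of Vegfa were Musk, Acsm1, Lamb3, Dpysl3 and Fbxw7. Likeness was the root mean square difference of log2 values after each gene's own mean was subtracted, and it ran from 0.08 for Musk to 0.12 for Fbxw7. Musk encodes a receptor kinase of the neuromuscular junction, Acsm1 an acyl-CoA synthetase, Lamb3 a laminin chain, Dpysl3 a protein of the cytoskeleton and Fbxw7 a subunit of a ubiquitin ligase. Their log2 changes lay between 1.43 and 1.69. The nearest member was Kdr, at 0.65, and 1153 genes lay closer to Vegfa than it did.

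Among proteins that process VEGFs, bind them or work beside their receptors, 1 of 13 genes rose and 1 fell, with a median of 0.15. At an unadjusted limma p under 0.05 there were 3 with a higher and 1 with a lower OVX mean, beside 15.8% of all genes. Thbs1, the thrombospondin that inhibits vessel growth, gave 5.41, 5.47 and 5.39 in the Cont arrays and 7.91, 8.37 and 8.31 in the OVX arrays. It rose by 2.77 (standard error 0.15, limma adjusted p = 3.67e-06), so Thbs1 and Vegfa were both higher in every OVX array. Adamts3, a protease that activates VEGF-C, gave 4.14, 3.34 and 4.32 in the Cont arrays and 2.78, 2.95 and 3.06 in the OVX arrays. It fell by 1.00 (standard error 0.23, limma adjusted p = 0.0341), with its OVX values under the lower quartile of every array. Ccn2, a matricellular protein that binds VEGF-A, had a change of 0.44 that did not pass (limma adjusted p = 0.192). The call of Adamts3 was lost when any array other than Cont replicate 2 was left out, with adjusted p from 0.0778 to 0.132.

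Ligands that share the neuropilins with VEGFs were also measured. Of 12 class 3 semaphorins and plexins, 3 rose and none fell, with a median of 0.12, where 2.57% of all genes were called higher. An unadjusted limma p under 0.05 was reached by 5 with a higher and 1 with a lower OVX mean, beside 15.8% of all genes. Sema3a and Sema3e had changes of −0.54 and −0.29 that did not pass (limma adjusted p = 0.104 and 0.352). In both, every OVX array was below every Cont array. Sema3c gave 7.45, 7.15 and 7.31 in the Cont arrays and 8.68, 8.64 and 8.79 in the OVX arrays, and the groups did not overlap. It rose by 1.40 (standard error 0.14, limma adjusted p = 0.000179). Plxna4, a plexin that signals for semaphorins, rose by 0.85 (limma adjusted p = 0.0145), and Sema3d rose by 0.94 (limma adjusted p = 0.0464). Plxna4 did not pass without Cont replicate 2 or 3 or OVX replicate 1 or 3 (adjusted p from 0.0514 to 0.0649). With 1 array left out, Sema3d passed only without Cont replicate 3 (otherwise 0.0667 to 0.167), and it did not pass with all probe sets (0.0503).

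Of 22 measured signalling genes downstream of the receptors, 1 rose and none fell, with a median of 0.10, where 3.63% of all genes were called. At an unadjusted limma p under 0.05 there were 6 with a higher and 1 with a lower OVX mean, beside 15.8% of all genes. Every OVX array was above every Cont array in 5 and below in 2, beside 10.7% and 10.6% of all genes. Prkca, a protein kinase C that links VEGF receptor 2 to the MAP kinases, rose from 6.18 ± 0.11 (SD, n = 3) to 6.97 ± 0.29 (SD, n = 3), a change of 0.80 (limma adjusted p = 0.0227). The regulatory kinase subunit Pik3r1 and the small heat shock protein Hspb1 had changes of 0.53 and 0.55 that did not pass (limma adjusted p = 0.0991 and 0.172). Pik3r1 passed under the trend and robust settings (0.0152) and without Cont replicate 1 (0.0465). Prkca was not called without Cont replicate 1 or 2 or OVX replicate 1 or 3 (adjusted p from 0.0508 to 0.0899).

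Genes known to respond to VEGF in endothelial cells did not move one way. Of 18 such genes 1 rose and 2 fell, with a median of −0.08. At an unadjusted limma p under 0.05 there were 3 with a higher and 2 with a lower OVX mean, beside 15.8% of all genes. Mcam, an adhesion protein of endothelial, smooth muscle and other cells, gave 4.88, 4.94 and 4.88 in the Cont arrays and 5.80, 5.86 and 6.22 in the OVX arrays, and rose by 1.06 (standard error 0.15, limma adjusted p = 0.00204). The phosphatase Dusp5 and the nuclear receptor Nr4a1, both early response genes in many cells, fell by 0.68 and 0.67 (limma adjusted p = 0.0242 and 0.0483). VEGF is known to raise both in endothelial cells. With 1 array left out, Dusp5 passed only without Cont replicate 3 (otherwise 0.0780 to 0.0883), and Nr4a1 did not pass without Cont replicate 2 or 3 or OVX replicate 1 or 2 (adjusted p from 0.105 to 0.187), nor with all probe sets (0.0511).

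Hypoxia-inducible factors (HIFs) are known to activate Vegfa when oxygen is low. Of 10 genes of the HIFs and their regulators 0 passed limma's adjusted p, 1 had an unadjusted p under 0.05, and 1 did so by the methods' t-test. Hif1a had a log2 change of 0.44 (limma adjusted p = 0.144), with 0.0387 under the trend and robust settings. Vhl, which marks HIFs for destruction, had a change of 0.35, and the oxygen sensor Egln3 one of −0.33 (limma adjusted p = 0.411 and 0.417). Of 17 HIF target genes other than Vegfa, 1 rose and none fell, with a median of 0.10. At an unadjusted limma p under 0.05 there were 2 with a higher and 0 with a lower OVX mean, beside 15.8% of all genes. Every OVX array was above every Cont array in 4 of these genes and below in 0, beside 10.7% and 10.6% of all genes. Adm, which encodes the vasodilator adrenomedullin, rose by 0.65 (limma adjusted p = 0.0470), while the glycolytic genes Pgk1 and Ldha had changes of 0.42 and 0.31 that did not pass (limma adjusted p = 0.187 and 0.336). With 1 array left out, Adm passed only without OVX replicate 1 (otherwise 0.0802 to 0.177), and did not pass with array weights (0.0586).

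**Figure D3:**
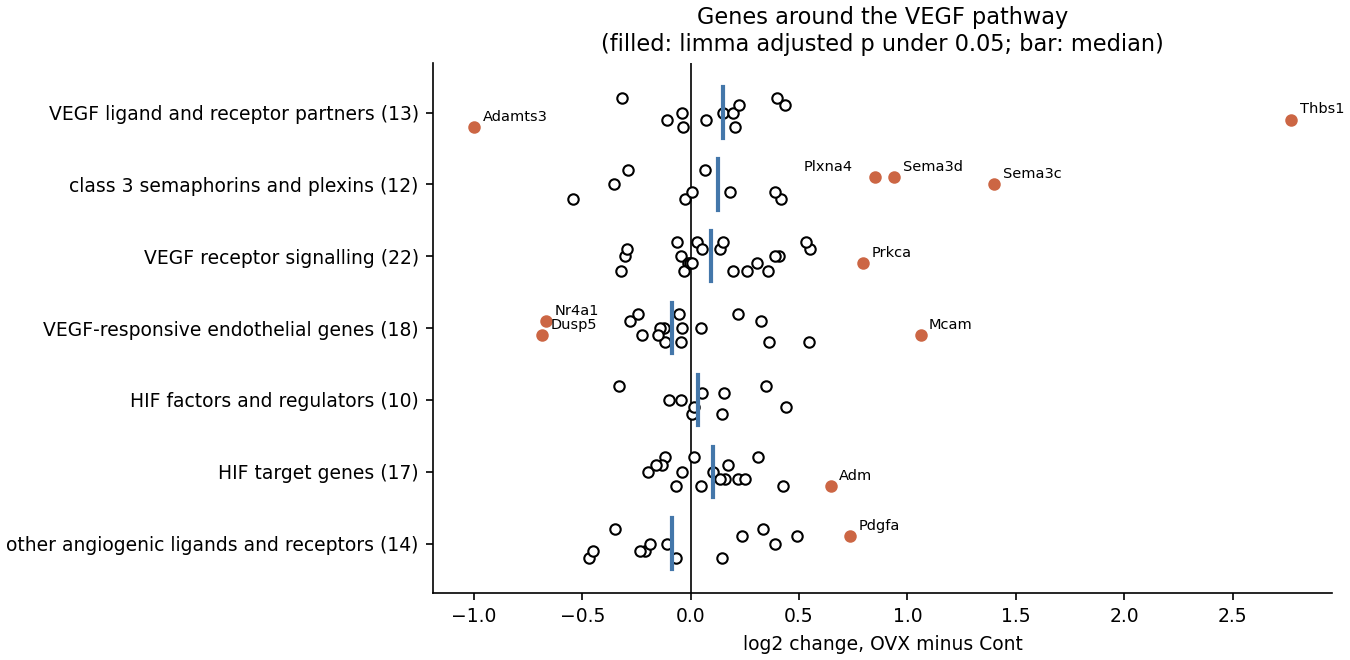
Log2 change (OVX minus Cont, x axis) of each measured gene in 7 lists around the VEGF pathway, with the number of genes in brackets. Filled points passed limma's adjusted p and the bar is the median of a list. The medians run from −0.09 to 0.15, and Thbs1 at 2.77 and Sema3c at 1.40 stand farthest to the right.

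In the limma fit of all 6 arrays no marker of endothelial cells, lymphatic vessels or pericytes passed the test, while markers of other SG cells rose or fell. Of 17 endothelial markers 0 passed limma's adjusted p, with a median of −0.04, and 2 had an unadjusted p under 0.05. Their summed level was 9.18 to 9.23 on the log2 scale in the Cont arrays and 9.20 to 9.30 in the OVX arrays. The angiopoietin receptor Tek had a change of −0.45 and the co-receptor Eng one of 0.46 (limma adjusted p = 0.216 and 0.312). Of 6 lymphatic markers and 7 pericyte markers 0 passed, with 0 and 2 at an unadjusted p under 0.05 and medians of −0.10 and −0.20. Summed levels were 7.961 to 8.06 in Cont and 7.92 to 7.958 in OVX for the lymphatic list, nearly touching. For pericytes they were 7.96 to 8.16 and 7.78 to 7.94. Both sums were lower on every OVX array, though 0 of the 6 lymphatic markers separated the groups singly. Lyve1 and Prox1 of the lymphatic list had changes of −0.37 and −0.27 (limma adjusted p = 0.351 and 0.555), and Higd1b and Abcc9 of pericytes −0.51 and −0.70 (limma adjusted p = 0.0726 and 0.138), while Rgs5, Pdgfrb and Cspg4 of the pericyte list had changes of 0.22, 0.15 and 0.09 (limma adjusted p = 0.566, 0.809 and 0.878). Higd1b passed without the dimmest probe sets (0.0384) and with array weights (0.0437), and Abcc9 passed without Cont replicate 1 (0.0422).

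Kdr was also set against the mean of the 17 endothelial markers on each array, a comparison chosen after its values were seen. Kdr lay 1.08 to 1.13 above that mean in the Cont arrays and 1.32 to 1.61 above it in the OVX arrays. The groups were apart, with a difference of 0.40 and a two-sided exact permutation p of 0.1, the smallest possible here. The marker mean itself was 4.71 to 4.87 in the Cont arrays and 4.79 to 4.83 in the OVX arrays. The difference therefore largely repeats Kdr's own change of 0.39, and its p is no separate result. For Flt1 the same difference was 0.15 (exact p = 0.5), and the groups overlapped.

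Of 9 acinar markers, 4 fell and none rose. Their summed level was 14.88 to 14.96 in the Cont arrays and 14.36 to 14.43 in the OVX arrays. Smgc, at a mean of 12.33 in Cont and 5.18 in OVX, weighs heavily in that fall. The bright acinar genes Prol1 and Pip had changes of −0.07 and −0.09 that did not pass (limma adjusted p = 0.851 and 0.790). Of 5 measured markers of granular convoluted tubules, the growth factor-storing ducts of rodents, 4 rose. The summed level went from 13.48 to 13.80 in Cont up to 14.69 to 14.71 in OVX. Klk1 of this list had a change of −0.15 (limma adjusted p = 0.616), with every OVX array below every Cont array. Of 9 markers of other ducts 4 rose, with summed levels of 10.81 to 11.01 and 11.40 to 11.48. Of 8 myoepithelial and smooth muscle markers 6 rose, with summed levels of 9.74 to 9.97 and 11.33 to 11.57. Of 6 fibroblast markers 4 rose, with summed levels of 10.003 to 10.25 and 10.77 to 10.94, while Dpt had a change of −0.44 (limma adjusted p = 0.385). The summed levels of all 5 lists did not overlap between the groups, as was so for Vegfa and, singly, for 21.4% of all genes. The lists were chosen with earlier results known, and 3.63% of all genes were called in either direction. The part of these lists in the rise of Vegfa was not tested.

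The genes of these lists named next are those with the smallest p, not the largest change. Smgc, a salivary secretory protein, fell by 7.15 and the acinar transcription factor Spdef by 1.08. Egf and the kallikrein Klk1b27 of the tubules rose by 3.96 and 3.51, and Gfra3 and the sodium channel subunit Scnn1b of ducts by 2.65 and 1.17. The contractile genes Tagln and Myh11 rose by 2.10 and 1.71, and the collagens Col3a1 and Col1a2 by 2.30 and 0.96 (limma adjusted p = 0.00502 and 0.00519). Col3a1 had a Cont SD of 0.99 with Cont replicate 2 at 4.11, and its change was 1.74 to 2.66 with 1 array left out. It did not pass under the trend and robust settings (0.0634). The methods' t-test did not call Col3a1, Col1a2, Spdef or Scnn1b (adjusted p = 0.241, 0.129, 0.149 and 0.106). Log2 intensities have no true zero, so no marker could be counted as absent.

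**Figure D4:**
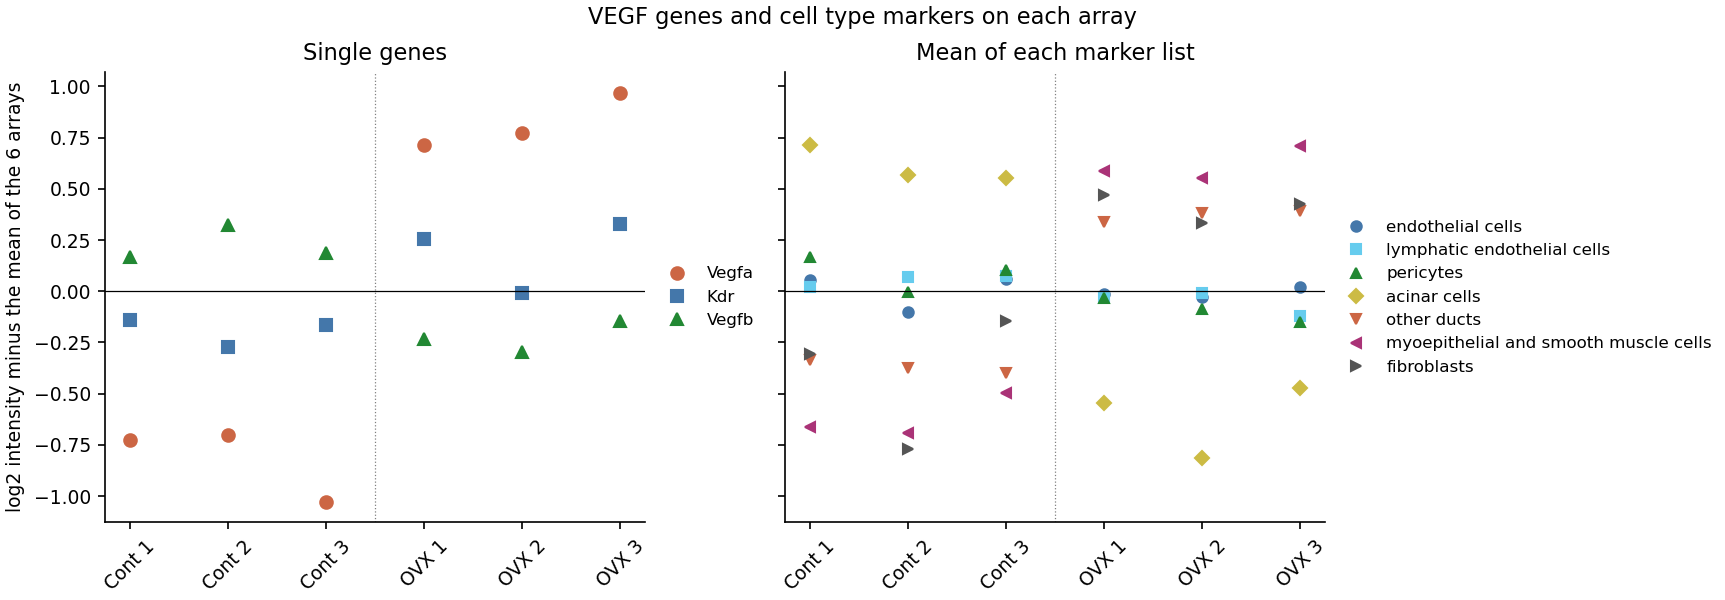
Log2 intensity on each array (x axis) minus the mean of the 6 arrays (y axis), for Vegfa, Kdr and Vegfb (left) and for the mean of each of 7 marker lists (right). The lymphatic and pericyte means are slightly lower on the OVX arrays and the endothelial mean shows no order. The duct, myoepithelial and fibroblast means are higher and the acinar mean is lower on the OVX arrays. The acinar mean takes in Smgc, whose change of −7.15 weighs most in it. The granular tubule list is not drawn, and its centred mean ran from −1.57 to −0.86 on the Cont arrays and from 1.14 to 1.18 on the OVX arrays.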

How the data were processed

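Whole-gland RNA of 6 mice was hybridized to Clariom S mouse arrays. The paper states that the arrays were normalized jointly with SST-RMA, and the values the authors deposited are log2 intensities. The submitters' processing notes instead name RMA and Affymetrix Power Tools, without a version, and the values do not tell which method was used. No source states the log base, which rests on the values, the largest being 13.06. Groups and replicate numbers came from the sample labels.

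The platform annotation gives 1 gene symbol for 19572 of 22206 probe sets, several for 0 and none for 2634, which entered 1 alternative only. For 55 genes with several probe sets the brightest over all arrays was counted, which gave 19505 genes. The groups were compared with limma 3.58.1 (lmFit and eBayes, no covariate) under R 4.3.3, and p-values were adjusted by Benjamini-Hochberg over every named probe set. The step was tested on simulated arrays with known changes, where it called 34.1% of 1.5-fold, 97.1% of 2-fold and 100% of 4-fold changes. A gene with a change of 1.5-fold or less that did not pass is therefore not shown to be unchanged. The paper names an independent t-test, which was run as an alternative in its equal-variance form and is called the methods' t-test. Differences of change were tested with exact permutation tests over the arrays. The planned 8 comparisons with Vegfa became 7, because Nrp1 was not analysed here.

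The members and the 19 other gene lists were chosen with earlier results of these data known, and the lists were described by counts and medians only. Named genes are the members, the 5 nearest to Vegfa, and the list genes with the smallest p. Up to 3 were taken from each pathway list and up to 2 from each cell type list. A few other list genes are given beside them for contrast, outside this rule. The summed level of a list is the log2 of its summed linear intensities. Sequences are from RefSeq, in which 8 of the 8 measured members matched by symbol. Alternatives were quantile normalization, median centring, limma's trend and robust settings, a filter that drops the dimmest 30% of probe sets, weights per array, a replicate block, leaving out each array, the t-test in both forms, all probe sets, the mean over probe sets and the study's threshold.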

Additional observations from a re-analysis of the deposited data

How the results depend on the processing

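The rise of Vegfa kept its direction and passed in 14 of 14 alternatives fitted with limma (adjusted p up to 0.00115). The t-tests gave the same change of 1.64 but an adjusted p of 0.0521 with equal and 0.138 with unequal variances, so 0 members were called by either. With limma's trend and robust options 2 members were called, Vegfa and Vegfb. With 1 array left out the change of Vegfc ran from −0.042 to 0.0094 and that of Pgf from −0.20 to 0.088, opposite in sign to the full value for Vegfc without Cont replicate 2 and for Pgf without OVX replicate 3, and neither passed. Kdr, Flt1, Flt4 and Nrp2 kept their direction and did not pass in any alternative.

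The count of called genes was 1104 with the trend and robust options, 79 by the methods' t-test, 7 with unequal variances, and between 382 and 561 with 1 array left out (428 without Cont replicate 2, and 382, 455 and 396 without OVX replicates 1, 2 and 3). With the replicate block it was 630 in place of 709, and 1 member, Vegfa, was called as before (adjusted p = 0.000467). Among the other named genes the block ended the calls of Nr4a1 (0.0547) and Adm (0.0618), and Fabp4 (0.0229) and Cidec (0.0371) passed with it. The labels give the groups the same replicate numbers but the mice are separate, and deviations of arrays with the same number correlated at 0.07, 0.02 and −0.03, so the numbers were not taken as pairs. Cont replicate 3 correlated best with OVX replicate 2 (0.06), while Cont replicates 1 and 2 correlated best with the OVX array of their own number. Quantile normalization and median centring changed no call of a member, and the median change of all genes stayed within −0.02 and 0 under both. Of the 50 named genes that are not members, 0 reversed in 795 fits, 83 fits lost a call and 13 gained one. The methods' t-test, after adjustment, ended the calls of Adamts3, Plxna4, Sema3d, Prkca, Mcam, Dusp5, Nr4a1, Adm and Pdgfa. It also ended those of Spdef, Scnn1b, Col3a1, Col1a2, Musk, Lamb3 and Fbxw7. The difference between the change of Vegfa and that of each other member kept its sign in 9 of 9 alternatives, and all of these share the Vegfa values. The table holds no detection calls, so how far a dim value lies above background is not known.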

Other observations

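Other families that shape blood vessels held few called genes. Of 14 other angiogenic ligands and receptors 1 rose and none fell, with a median of −0.09, where 3.63% of all genes were called. At an unadjusted limma p under 0.05 there were 3 with a higher and 3 with a lower OVX mean, beside 15.8% of all genes. The ligand Pdgfa, which acts on mesenchymal cells, gave 7.72, 7.56 and 7.68 in the Cont arrays and 8.35, 8.12 and 8.70 in the OVX arrays, and rose by 0.74 (limma adjusted p = 0.0323). It passed without OVX replicate 2 but with no other array left out (otherwise 0.0674 to 0.123). The arterial ligand Efnb2 had a change of 0.49 and Angpt1, which steadies vessels through Tek, one of −0.47 (limma adjusted p = 0.147 and 0.173). Efnb2 passed under limma's trend and robust settings (adjusted p = 0.0388) and Angpt1 without Cont replicate 3 (adjusted p = 0.0435).

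Of cell types that can accompany a dissected gland, macrophage, lymphocyte, adipocyte and skeletal muscle markers held 0 called genes of 5, 6, 6 and 6, with 1, 1, 2 and 0 at an unadjusted p under 0.05 by limma. Their median log2 changes were 0.21, −0.09, −0.40 and 0.13. The macrophage genes Adgre1 and Csf1r had changes of 0.41 and 0.27, the B cell genes Cd79a and Ms4a1 −0.44 and −0.28, and the muscle genes Tnnt3 and Acta1 −0.25 and 0.24. The fat genes Fabp4 and Cidec had changes of −1.14 and −0.73 (limma adjusted p = 0.0637 and 0.0928). Fabp4 passed without Cont replicate 2 (adjusted p = 0.0475), without the dimmest probe sets (0.0385) and with array weights (0.0426).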
